A study of Mus musculus with 18 samples.

Results

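The genes described are 9 nuclear receptors and the homeobox factor Cdx2: Hnf4a, Hnf4g, Ppara, Rxra, Nr5a2, Nr3c1, Esrra, Nr1h4, Vdr and Cdx2. They were taken by name, 10 of the 32286 gene features that the matrices listed, and all 10 were detected in every library. Their unique molecular identifiers (UMIs, each standing for 1 captured transcript) were summed per library and per class of cells in single-cell RNA sequencing of mouse small intestine. Levels are given as CPM (UMIs scaled to the class total), from stem-like through progenitor-like to enterocyte-like cells and with and without Setdb1, an enzyme that methylates histone H3 at lysine 9.

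Nuclear receptors are transcription factors that bind DNA through zinc fingers and, in many cases, respond to a lipid-soluble ligand held in a pocket of the protein. PPARA senses fatty acids, NR1H4 (the bile acid receptor FXR) senses bile acids and VDR senses active vitamin D, and each of them binds DNA together with RXRA. HNF4A and HNF4G bind as pairs of their own kind and, with CDX2, are known for switching on brush border and lipid absorption genes in villus enterocytes. NR3C1 is the glucocorticoid receptor, NR5A2 (LRH-1) is known for roles in crypt renewal and local steroid synthesis, and ESRRA drives mitochondrial genes.

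All mice were male, 60 to 65 days old and from crosses of lines with C57Bl6 backgrounds, and all carried the Lgr5-GFP-CreERT2 knock-in. In both genotypes they were given tamoxifen (70 mg/kg, dissolved in corn oil) by injection into the peritoneum 5 days before analysis. The 4 groups had 2 libraries each: Lgr5+WT (Lgr5-GFP-CreERT2), Lgr5+Setdb1KO (with Setdb1 lox/lox), lineage-traced WT (with the nTnG reporter, whose nuclear red fluorescence turns green after Cre) and lineage-traced Setdb1-KO (with Setdb1 lox/lox and nTnG). The Lgr5+ libraries thus held GFP-sorted crypt cells, and the lineage-traced libraries GFP-sorted cells that included descendants of cells in which Cre had acted. The Lgr5+ mice had no nTnG reporter, so nothing marked which of their enterocyte-like cells had recombined. Enterocyte-like cells held 0 GFP UMIs in every library of both experiments. GFP was hardly captured in any class, with 0 to 21 UMIs over all cells of a library. The zeros therefore do not show whether the enterocyte-like cells were labelled. The knock-in is driven by the Lgr5 promoter and is mosaic, so not every crypt recombined, and tamoxifen without Cre was not among the groups. The study's text describes its single-cell libraries as biological replicates without saying which mice gave which library, and p-values measure only the spread between libraries, which may be technical.

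Barcodes with 1000 (Lgr5+) or 500 (lineage-traced) to 18000 UMIs and under 5% mitochondrial UMIs were kept, 25218 in the Lgr5+ and 26797 in the lineage-traced libraries, of 16881518 to 81876035 UMIs per library. Classes were rebuilt from marker UMIs and are called stem-like, enterocyte-like and so on, because no deposited cell annotation was used. Pairs of libraries shared 3 to 34 barcodes. The enterocyte-like class held 179 and 351 cells in Lgr5+WT, 354 and 818 in Lgr5+Setdb1KO, 1324 and 614 in lineage-traced WT, but only 81 and 213 in lineage-traced Setdb1-KO. Its share was 16.3% ± 0.727 (SD, n = 2) in lineage-traced WT and 1.88% ± 0.282 in lineage-traced Setdb1-KO (exact permutation p = 0.33, two-sided, the smallest that 2 libraries against 2 can give), but 4.74% ± 1.39 in Lgr5+WT and 9.70% ± 3.59 in Lgr5+Setdb1KO (also exact p = 0.33). Over all cells, Setdb1 itself was at 11.3 and 9.93 CPM in Lgr5+WT against 5.32 and 6.21 in Lgr5+Setdb1KO, but at 6.11 and 4.21 in lineage-traced WT against 10.4 and 7.85 in the libraries labelled Setdb1-KO. Within classes the lineage-traced groups overlapped in stem-like (9.31 and 12.6 against 10.1 and 9.77) and enterocyte-like cells (5.43 and 5.11 against 5.89 and 4.87). In progenitor-like cells they did not, at 6.33 and 5.95 CPM against 13.6 and 8.23. The tags lie at the 3′ end, outside the floxed exon, so these levels do not read the deletion itself, and every direction for the lineage-traced libraries rests on their labels. The 8 Paneth cell markers took 324037 and 296746 CPM of the lineage-traced WT libraries against 69944 and 47218 of the Setdb1-KO libraries, and within enterocyte-like cells 99791 and 177328 against 18926 and 16395. Summed stromal markers reached at most 1.26 CPM in enterocyte-like and 0.85 CPM in stem-like cells.

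Promoter windows of 300 bases (250 before and 50 after the annotated start, RefSeq, GRCm38.p6) were found for 8 of the 10 genes, in 11 windows. They were searched on both strands for AGGTCA, the core motif to which many nuclear receptors bind, which 16.3% of all 32851 windows held. It occurred in 1 window each of Nr1h4, Nr5a2 and Rxra. The windows of Nr1h4 and Rxra are shown because both genes rose in enterocyte-like cells and act as partners on DNA. Capitals mark AGGTCA or its reverse complement TGACCT.
Nr1h4 window, minus strand, chr10:89506609-89506908: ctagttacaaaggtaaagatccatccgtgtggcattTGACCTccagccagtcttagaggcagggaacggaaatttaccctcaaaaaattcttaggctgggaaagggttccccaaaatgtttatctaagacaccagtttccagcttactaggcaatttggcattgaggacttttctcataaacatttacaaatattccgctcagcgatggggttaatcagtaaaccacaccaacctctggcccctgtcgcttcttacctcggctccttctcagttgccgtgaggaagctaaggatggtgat
Rxra window, plus strand, chr2:27709042-27709341: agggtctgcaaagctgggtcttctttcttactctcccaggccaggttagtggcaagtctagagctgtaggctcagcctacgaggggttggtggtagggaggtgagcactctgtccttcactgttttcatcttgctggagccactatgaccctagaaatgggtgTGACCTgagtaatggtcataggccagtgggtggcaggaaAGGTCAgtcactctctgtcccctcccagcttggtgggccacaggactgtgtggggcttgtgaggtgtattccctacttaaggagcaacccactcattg
The Rxra window held the motif at 2 places, and the other annotated Rxra start had none. A match of these letters is a description of the sequence and was not tied to any binding measurement here.

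In WT cells of the Lgr5+ experiment, enterocyte-like against stem-like cells showed 7 of the 10 genes higher and 1 lower (edgeR quasi-likelihood test with library as a term, Benjamini-Hochberg adjusted p under 0.05). The background was wide, since 59.8% of the 11702 genes tested were called, 27.5% higher and 32.3% lower. The largest rises were those of Ppara, Nr1h4, Hnf4g, Esrra and Rxra, and Vdr went the other way. Ppara, Nr1h4, Hnf4g, Esrra and Rxra kept their calls in all 9 alternative settings and 4 fits with a library left out, and without the second WT library 5 genes in place of 8 were called. The median log2 fold change was 0.87 over the 10 genes and -0.16 over all genes tested.

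The HNF4 genes parted from each other along this step. Hnf4g was at 45.4 and 54.8 CPM in stem-like, 54.8 and 61.0 in progenitor-like and 143.5 and 128.6 in enterocyte-like cells of the Lgr5+WT libraries. Both enterocyte-like values stood well above all the others, a log2 fold change of 1.64 over stem-like cells (SE 0.09, edgeR adjusted p = 8e-13), or 3.11-fold. Its paralog Hnf4a was at 81.2 and 63.4 CPM in stem-like, 85.8 and 67.5 in progenitor-like and 62.9 and 47.5 in enterocyte-like cells. The enterocyte-like level of Hnf4a was therefore the lowest of the 3 classes within each library. Against stem-like cells the difference was -0.18 on the log2 scale and was not called (SE 0.10, edgeR adjusted p = 0.12), although it was -0.40 and called without normalisation factors (edgeR adjusted p = 0.0015). Against progenitor-like cells Hnf4a was lower by a called -0.26 (SE 0.10, edgeR adjusted p = 0.035), a call lost without either WT library. Cdx2, which marks intestinal identity from the crypt upwards, was at 146.5 and 134.3 CPM in stem-like and 135.3 and 141.0 in enterocyte-like cells. These ranges overlapped, and the small called rise of 0.21 (SE 0.08, edgeR adjusted p = 0.026) became -0.01 when no normalisation factor beyond the library total was used and 0.10, not called, without the second WT library.

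**Figure D1:**
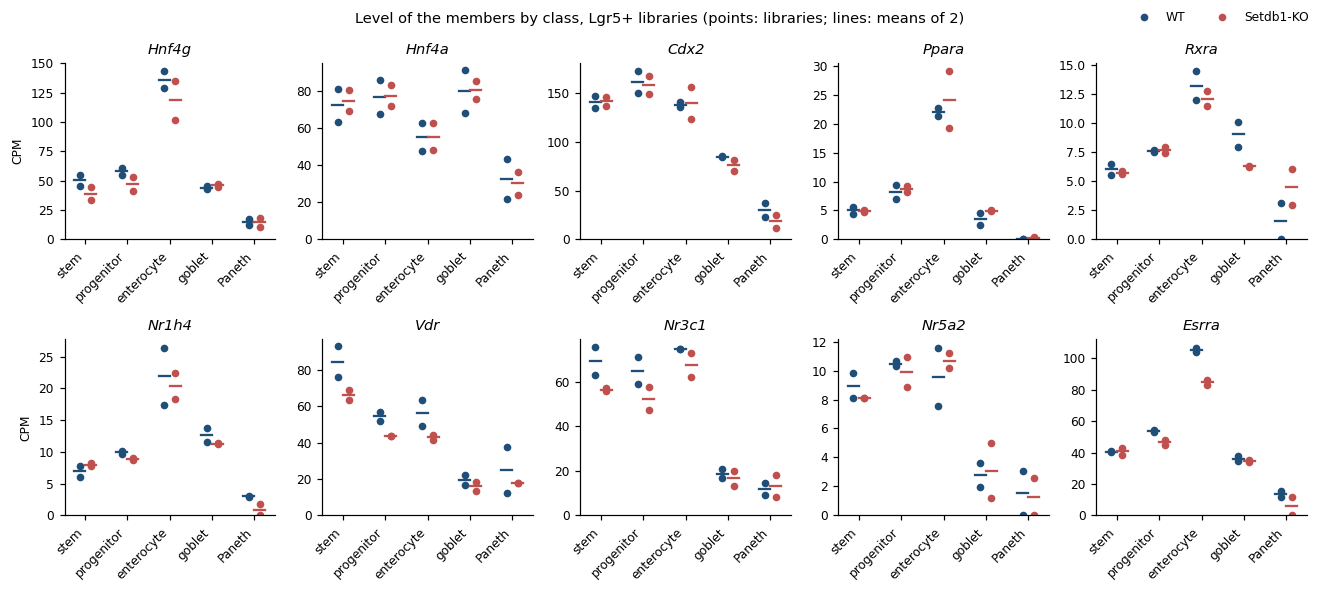
Level in CPM (vertical axis, linear) of the 10 genes in 5 classes of the Lgr5+ libraries (horizontal axis), with 1 point per library and a line at the mean of 2 libraries, blue for WT and red for Setdb1-KO. Hnf4g, Ppara, Rxra, Nr1h4 and Esrra are highest in enterocyte-like cells in both genotypes among these 5 classes, whereas Vdr is highest in stem-like cells and Hnf4a is lower in enterocyte-like than in stem-like cells of each library.

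Among the ligand-sensing receptors, Ppara had the largest step. It was at 4.38 and 5.65 CPM in stem-like, 7.06 and 9.48 in progenitor-like and 21.4 and 22.8 in enterocyte-like cells, with no overlap between the classes. The log2 fold change from stem-like to enterocyte-like cells was 2.33 (SE 0.23, edgeR adjusted p = 9.3e-09), or 5.03-fold. Nr1h4 was at 6.01 and 7.83 CPM in stem-like, 10.2 and 9.69 in progenitor-like and 26.4 and 17.4 in enterocyte-like cells, and rose by 1.80 (SE 0.23, edgeR adjusted p = 4.5e-07). Rxra, the partner that both of these share, was at 6.53 and 5.52 CPM in stem-like, 7.73 and 7.50 in progenitor-like and 14.5 and 12.0 in enterocyte-like cells. Its rise of 1.34 (SE 0.23, edgeR adjusted p = 2.6e-05) came mostly after the progenitor-like class, where the difference from stem-like cells was 0.34 and was not called (edgeR adjusted p = 0.097).

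Vdr was the exception among the receptors that pair with RXRA. It was at 93.1 and 76.4 CPM in stem-like, 57.0 and 52.2 in progenitor-like and 63.6 and 49.1 in enterocyte-like cells of the Lgr5+WT libraries. The stem-like values lay above all values of the other 2 classes, and Vdr was lower by -0.63 in progenitor-like (SE 0.07, edgeR adjusted p = 2e-07) and by -0.38 in enterocyte-like cells (SE 0.10, edgeR adjusted p = 0.0023). In barcodes of 10 to 100 UMIs, which mostly carry free RNA, Vdr was at 38.1 and 27.0 CPM in these libraries, below each of the 3 classes. Without the second WT library the enterocyte-like difference was not called.

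Of the remaining receptors, Esrra climbed at each step. It was at 40.2 and 41.1 CPM in stem-like, 53.1 and 54.6 in progenitor-like and 107.0 and 104.3 in enterocyte-like cells, so that the classes were far apart and the replicates close. The log2 fold changes were 0.40 to progenitor-like (SE 0.07, edgeR adjusted p = 0.00013) and 1.59 to enterocyte-like cells (SE 0.09, edgeR adjusted p = 7.3e-13). Nr3c1 was at 75.9 and 63.3 CPM in stem-like and 74.9 and 74.9 in enterocyte-like cells. Those values overlapped, and its called rise of 0.35 (SE 0.10, edgeR adjusted p = 0.006) was lost without a normalisation factor, with a stricter marker cut and without the second WT library (0.20). Nr5a2 was at 9.86 and 8.07 CPM in stem-like and 7.55 and 11.6 in enterocyte-like cells, with a difference of 0.39 that was not called (SE 0.26, edgeR adjusted p = 0.19).

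The earlier step, from stem-like to progenitor-like cells, was smaller. In the same fit, 5 of the 10 genes were called higher (Ppara by 0.72, Nr1h4 by 0.51, Esrra by 0.40, Hnf4g by 0.20 and Cdx2 by 0.19) and Vdr lower, against 40.1% of all genes called, 20.3% higher and 19.8% lower. Without the first WT library 3 genes in place of 6 were called, and without the second 4. From progenitor-like to enterocyte-like cells 6 were higher and Hnf4a lower, against 50.8% of all genes, 25.1% higher and 25.8% lower. The 6 were Ppara (1.62), Hnf4g (1.43), Nr1h4 (1.29), Esrra (1.19), Rxra (1.00) and Nr3c1 (0.45), the last of which lost its call without normalisation factors (0.23), with the stricter marker cut (0.30) and without the second WT library (0.28).

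Outside the absorptive line, the secretory classes of the Lgr5+WT libraries set these genes apart further. In goblet-like cells Nr3c1 was at 16.8 and 20.7 CPM, Vdr at 16.5 and 22.4 and Nr5a2 at 1.99 and 3.64, each below its stem-like level in both libraries. Hnf4a, at 91.6 and 68.0 CPM, did not separate goblet-like from stem-like cells. Nr5a2 had its highest mean in tuft-like cells, at 19.1 and 12.7 CPM, above its progenitor-like values. These sums were small, at 471205 and 631562 UMIs of all genes, and free RNA held Nr5a2 at a mean of 8.66 CPM (SD 12.3). Vdr was at 100.4 and 71.2 CPM in enteroendocrine-like cells, a range that overlapped its stem-like values. Nr1h4 averaged 19.0 CPM in enteroendocrine-like cells of Lgr5+WT, next to 21.9 in enterocyte-like cells. In Lgr5+Setdb1KO these means were 24.2 and 20.4 CPM. Paneth-like cells were low for most of the 10 genes, and Ppara had 0 UMIs there in both Lgr5+WT libraries. In the first of these a count of 0 allows up to 8.66 CPM, a limit that covers counting error only and reaches above the stem-like level of Ppara. These class levels are a description with no test.

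In WT cells of the lineage-traced experiment, enterocyte-like against stem-like cells showed 7 of the 10 genes higher and none lower, against 41.5% of the 9174 genes tested, 22.4% of them higher and 19.1% lower. Nr1h4 was at 3.58 and 5.03 CPM in stem-like and 18.8 and 12.3 in enterocyte-like cells and rose by 2.35 (SE 0.55, edgeR adjusted p = 0.00017). Ppara was at 4.30 and 5.03 CPM against 12.8 and 13.3 and rose by 1.77 (SE 0.55, edgeR adjusted p = 0.0053). Neither gene overlapped between these classes. The enterocyte-like sums held 38 and 12 UMIs of Nr1h4 and 26 and 13 of Ppara, and free RNA in these libraries held Nr1h4 at 14.5 and 5.32 CPM, a range that overlapped the enterocyte-like one.

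The other 5 were Rxra (1.25), Esrra (0.96), Hnf4g (0.59), Hnf4a (0.55) and Vdr (0.51), and for 4 of them the CPM of the classes overlapped. Rxra was at 9.31 and 10.1 CPM in stem-like and 24.2 and 7.16 in enterocyte-like cells, so that the libraries moved in opposite directions. Vdr did the same, at 93.9 and 108.2 CPM against 135.7 and 80.8. Hnf4g also fell in the second library on plain CPM, with means of 85.4 CPM (SD 28.6) in stem-like and 93.5 (SD 9.37) in enterocyte-like cells. Esrra was the gene without overlap, at 24.4 and 22.6 CPM against 43.9 and 26.6. Without the first WT library 0 of the 7 calls were left, with the log2 fold change of Rxra at -0.09 and of Vdr at -0.02, and DESeq2 made 1 call. No gene was called from stem-like to progenitor-like cells, where 4.76% of all genes were, although Vdr had an unadjusted p under 0.05 (log2 fold change -0.54, edgeR adjusted p = 0.092) and DESeq2 also called 0. From progenitor-like to enterocyte-like cells 6 were higher, against 44.8% of all genes called and 24.0% higher, namely Nr1h4 (2.15), Ppara (1.13), Vdr (1.05), Hnf4a (0.80), Hnf4g (0.73) and Esrra (0.73), and without the first WT library 0 of these 6 calls were left.

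**Figure D2:**
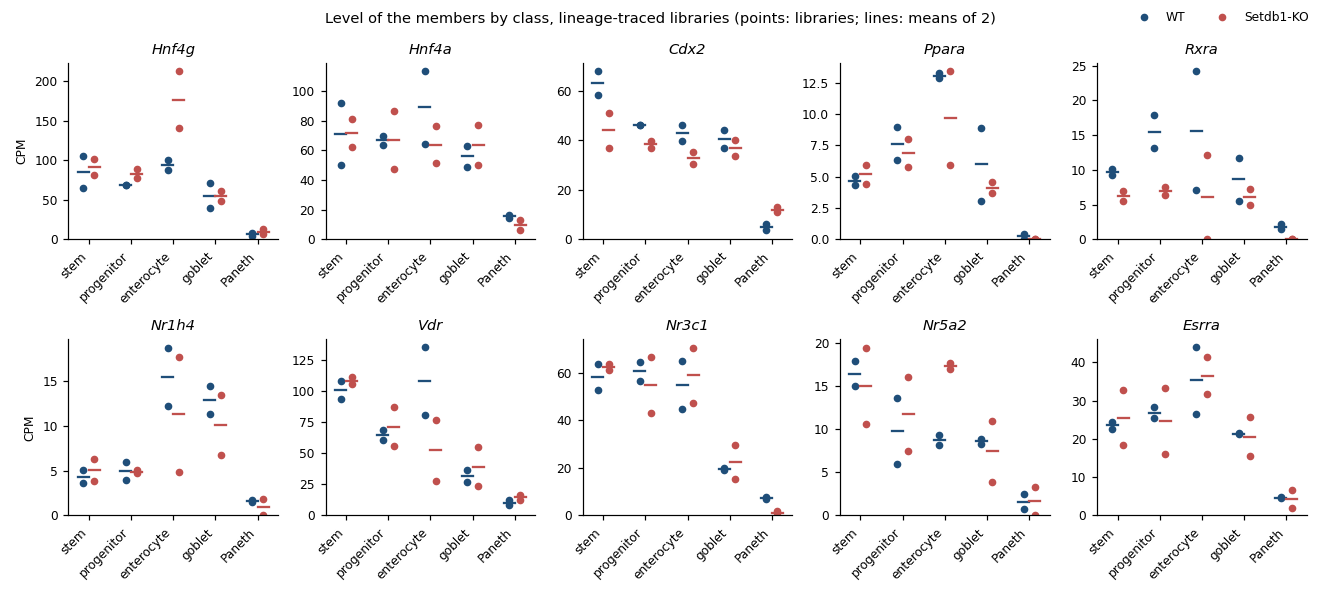
Level in CPM (vertical axis, linear) of the 10 genes in 5 classes of the lineage-traced libraries (horizontal axis), with 1 point per library and a line at the mean of 2 libraries, blue for WT and red for Setdb1-KO. Ppara and Nr1h4 stand higher in enterocyte-like than in stem-like cells of both WT libraries, and the 2 red points for Vdr in enterocyte-like cells, at 76.6 and 28.0 CPM, lie under both blue ones.

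The step to enterocyte-like cells differed between the experiments for 3 genes in WT cells, a comparison added after the results were seen (11.7% of 10823 genes called). Hnf4g rose less in the lineage-traced cells, by -1.05 on the log2 scale (SE 0.20, edgeR adjusted p = 0.00024). Hnf4a stood higher by 0.68 (SE 0.20, edgeR adjusted p = 0.018) and Vdr by 0.90 (SE 0.20, edgeR adjusted p = 0.0015). Without the first lineage-traced WT library the difference for Vdr was 0.40 and was not called, and that for Hnf4a was not called without this library, without either Lgr5+WT library or with the higher UMI minimum (0.59 to 0.97). The difference for Hnf4g was -0.83 and not called with the stricter marker cut. The experiments also differed in mice, reporter and depth, with a median of 4686 to 9336 UMIs per kept barcode in the Lgr5+ and 961 to 2085 in the lineage-traced libraries. Their enterocyte-like classes differed in content as well. Klf4 was at 8.81 and 5.02 CPM in those of Lgr5+WT against 225.0 and 158.5 in those of lineage-traced WT. Ckmt1 went the other way, at 1285 and 1054 against 289.2 and 202.5. These differences between the experiments cannot be told apart.

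**Figure D3:**
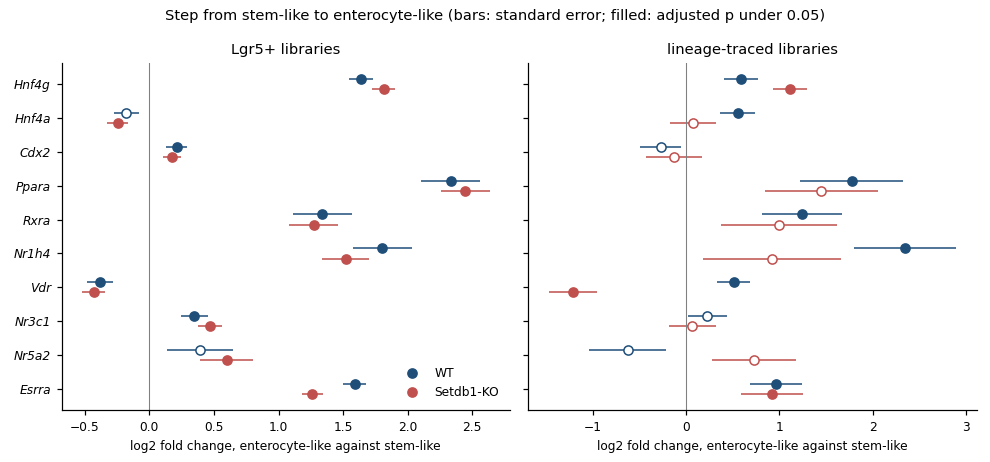
Log2 fold change from stem-like to enterocyte-like cells (horizontal axis) of each gene, for the Lgr5+ libraries on the left and the lineage-traced libraries on the right, in WT (blue) and Setdb1-KO (red). Bars are the standard error of the fit, and filled points have an adjusted p under 0.05. In Lgr5+ libraries the genotypes lie close together, and on the right Vdr lies at 0.51 in WT and at -1.21 in Setdb1-KO.

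In the Lgr5+ libraries the step was called different between the genotypes for none of the 10 genes. Whether the enterocyte-like cells of these libraries had recombined and lost Setdb1 was not measured. In Lgr5+Setdb1KO cells 8 of the 10 genes were higher and Hnf4a (-0.24) and Vdr (-0.43) lower in enterocyte-like than in stem-like cells, where 63.4% of all genes were called, 30.6% higher and 32.8% lower. Of the 8 rises, that of Nr5a2 (0.60) was lost in 4 of 9 settings (0.18 with the stricter marker cut) and without either Setdb1KO library, and that of Cdx2 (0.17) was lost in 4 settings, turned to -0.03 without normalisation factors and was lost without the first library of either genotype. Without the second Setdb1KO library Nr3c1 and Hnf4a were not called either. Tested as a class by genotype difference, 0 of the 10 genes were called by edgeR (0.658% of all genes were), 0 by DESeq2, and 1 had an unadjusted edgeR p under 0.05 (1141 of all 11702 genes had). That gene was Esrra, whose step was smaller by -0.33 in Lgr5+Setdb1KO (SE 0.12, edgeR adjusted p = 0.32).

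Within the classes of the Lgr5+ libraries, 0 of the 10 genes were called between Setdb1-KO and WT. The background was low as well, with 1.33% of genes called in all cells, 0.390% in stem-like, 0.655% in progenitor-like and 0.729% in enterocyte-like cells. The unadjusted edgeR p was under 0.05 for 2 of the 10 genes in each of these 4 comparisons. Over all genes tested it was so for 2388 of 13661 in all cells and 1485 of 11793 in stem-like cells. It was so for 1307 of 11000 in progenitor-like and 1121 of 8780 in enterocyte-like cells. DESeq2 called 1 of the 10 genes in all cells and 0 in the classes. Vdr came closest. Over all cells it was at 65.5 and 56.1 CPM in Lgr5+WT and 45.9 and 43.6 in Lgr5+Setdb1KO, with a log2 fold change of -0.43 (SE 0.08, edgeR adjusted p = 0.058). Both Setdb1-KO libraries were below both WT libraries in all cells and in each of the 3 classes, at 63.4 and 68.9 CPM in stem-like, 43.6 and 43.9 in progenitor-like and 44.4 and 41.5 in enterocyte-like cells. DESeq2 (adjusted p = 0.0085) and a mitochondrial limit of 10% (edgeR adjusted p = 0.049) each called Vdr lower over all cells. The share of stem-like cells, where Vdr was highest of the 3 classes, moved with the value over all cells. It was 43.0% ± 0.70 (SD, n = 2) in Lgr5+WT and 27.5% ± 2.26 in Lgr5+Setdb1KO. Enteroendocrine-like cells, with a mean Vdr level of 85.8 CPM in Lgr5+WT, went from 2.51% to 5.65%. The part of these shares in the value over all cells was not tested.

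Nr3c1 followed the same order without a call, at 64.3 and 56.3 CPM in Lgr5+WT against 46.4 and 51.0 in Lgr5+Setdb1KO over all cells (log2 fold change -0.29, SE 0.10, edgeR adjusted p = 0.22). Esrra in enterocyte-like cells was at 107.0 and 104.3 CPM against 86.4 and 83.0 (-0.35, SE 0.11, edgeR adjusted p = 0.21). The groups did not overlap for 3 genes in all cells (Vdr, Nr3c1 and Nr5a2), where 43.1% of all genes did not, for 3 in stem-like cells (42.2%), 5 in progenitor-like cells (41.3%) and 3 in enterocyte-like cells (43.2%). Hnf4a and Cdx2 had log2 fold changes of -0.03 to 0.10 in these 4 comparisons, with standard errors of 0.07 to 0.16.

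In the lineage-traced libraries 1 gene was called over all cells and 1 within enterocyte-like cells. Over all cells, where 8.73% of genes were called (7.19% lower), Rxra was at 9.25 and 6.80 CPM in WT and 6.34 and 6.43 in Setdb1-KO. The groups did not overlap but lay close on plain CPM, and the log2 fold change of -0.85 (SE 0.23, edgeR adjusted p = 0.04) became -0.35 and was not called without normalisation factors, which moved the median of all genes from 0.01 to 0.54. Rxra was also not called with DESeq2 or without the first WT library. Hnf4g, at 43.7 and 50.6 CPM against 84.4 and 72.0, was not called (log2 fold change 0.19), and without those factors it was called higher, by 0.73. Nr1h4 was at 7.58 and 8.41 CPM against 7.89 and 5.83 (-0.76, SE 0.23, edgeR adjusted p = 0.059), and was called with a replicate block, an alternative described below. The lower share of enterocyte-like cells and the Paneth marker levels given above moved with this comparison, and their part in it was not tested.

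**Figure D4:**
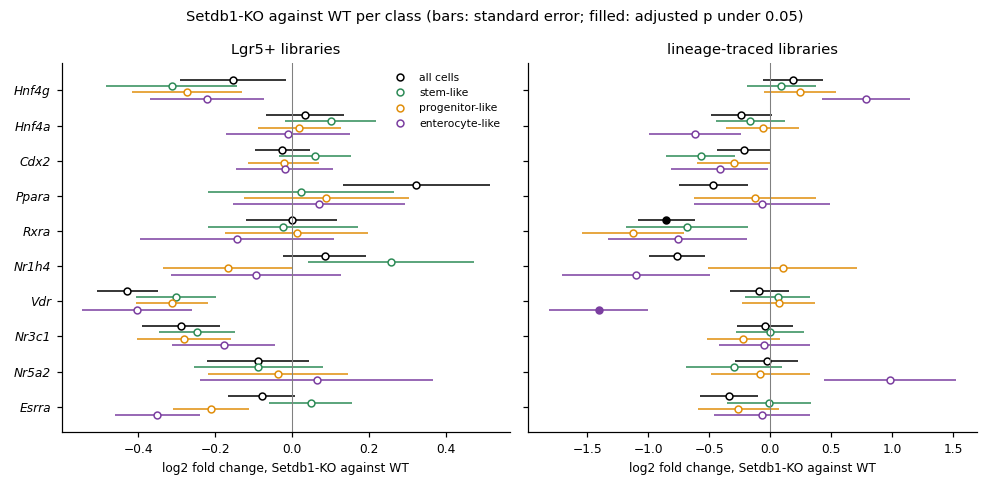
Log2 fold change of Setdb1-KO against WT (horizontal axis) of each gene over all cells and in 3 classes, for the Lgr5+ libraries on the left and the lineage-traced libraries on the right, which have different axis ranges. Bars are the standard error, and the filled points, Rxra over all cells at -0.85 and Vdr in enterocyte-like cells at -1.41, have an adjusted p under 0.05. Ppara and Nr1h4 have no point for lineage-traced stem-like cells because their counts were too low to be tested.

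Stem-like and progenitor-like cells of the lineage-traced libraries gave 0 calls (1.32% and 1.66% of all genes), also by DESeq2. In stem-like cells 8 of the 10 genes passed the filter on low counts and none had an unadjusted edgeR p under 0.05 (624 of all 8123 genes had), and in progenitor-like cells 1 did (547 of all 8504 genes did). That gene was Rxra, at 13.2 and 17.9 CPM in WT and 7.54 and 6.32 in the Setdb1-KO libraries (log2 fold change -1.12, SE 0.42, edgeR adjusted p = 0.28). In enterocyte-like cells Rxra had 49 and 7 UMIs in WT and 0 and 10 in Setdb1-KO. The 0 allows up to 17.7 CPM, which includes the WT value of the second library, so no difference was detectable at this depth.

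Vdr had the clearest difference in enterocyte-like cells, where 15.2% of genes were called (11.0% lower). It was at 135.7 and 80.8 CPM in lineage-traced WT (275 and 79 UMIs) and at 76.6 and 28.0 in Setdb1-KO (13 and 23 UMIs). Both Setdb1-KO values lay below both WT values, the first by little, and the log2 fold change was -1.41 (SE 0.41, edgeR adjusted p = 0.01). Stem-like cells of the same libraries had Vdr at 93.9 and 108.2 CPM in WT and 105.8 and 111.3 in Setdb1-KO. The step from stem-like to enterocyte-like cells was 0.51 in WT and -1.21 in Setdb1-KO, a difference of -1.72 (SE 0.31, edgeR adjusted p = 1.9e-05), in a test that called 8.03% of all genes and 4.38% lower. That difference was -1.18 without the first WT library and -0.93 without the second Setdb1-KO library, and was called in neither. DESeq2 did not call the difference within enterocyte-like cells (adjusted p = 0.12), nor did edgeR with brush border markers in place of the enterocyte markers (-0.98, adjusted p = 0.15). The call within enterocyte-like cells was also lost without either WT library and without the second Setdb1-KO library, with values of -0.86 to -1.83 over the 4 fits that left out a library. In the free RNA of the Setdb1-KO libraries Vdr was at 75.8 and 29.5 CPM, next to the 76.6 and 28.0 of their enterocyte-like cells, and in that of the WT libraries at 32.5 and 32.1 CPM, below theirs; the part of free RNA in the difference was not tested.

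The other genes in lineage-traced enterocyte-like cells were not called. Hnf4a averaged 89.0 CPM in WT and 63.9 in Setdb1-KO, with overlap between the groups, and was called only with the stricter marker cut. Hnf4g was at 100.2 and 86.9 CPM in WT and 212.2 and 140.0 in Setdb1-KO (log2 fold change 0.79, SE 0.36, edgeR adjusted p = 0.13), and Nr5a2 at 9.38 and 8.18 against 17.7 and 17.0 (0.98, SE 0.54, edgeR adjusted p = 0.21). Neither overlapped between the groups, as was so for 4 of the 10 genes and for 54.1% of all genes. In the other lineage-traced comparisons of genotype the groups did not overlap for 4 genes in all cells, where 70.6% of all genes did not, for 2 in stem-like cells (37.0%) and 3 in progenitor-like cells (31.0%). Nr1h4 was at 18.8 and 12.3 CPM against 17.7 and 4.87, from only 3 and 4 UMIs in Setdb1-KO (-1.10, SE 0.61, edgeR adjusted p = 0.21). In lineage-traced Setdb1-KO cells the step from stem-like to enterocyte-like was called higher for Hnf4g (1.11, SE 0.18, edgeR adjusted p = 1.9e-07) and Esrra (0.92, SE 0.33, edgeR adjusted p = 0.028) and lower for Vdr, where 23.6% of all genes were called, 12.9% higher and 10.7% lower. Without the second Setdb1-KO library Esrra (0.43) and Vdr (-0.37) were not called, nor were they with brush border markers (0.79 and -0.66), and Esrra also lost its call with DESeq2, without normalisation factors and with the stricter marker cut.

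Across the 2 experiments, the effect of Setdb1 loss over all cells differed for Nr1h4 alone, by -0.83 (SE 0.22, edgeR adjusted p = 0.044), where 7.58% of 13780 genes were called and 6.07% lower. Nr1h4 was at 11.1 and 11.1 CPM in Lgr5+WT and 12.9 and 10.7 in Lgr5+Setdb1KO, and the call was lost with DESeq2 and in 7 of the 8 fits that left out a library.

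Targets of the receptors were taken from a list of textbook genes per receptor, which does not separate genes that the receptor raises from genes that it lowers. A gene that passes the filter on low counts only through the group where it is high, as Slc30a10 did in some comparisons, can come out on 1 side only, so the counts and medians of all these lists are descriptions. In WT cells of the Lgr5+ experiment, the 3 VDR targets that passed the filter, of 5 listed, were higher in enterocyte-like than in stem-like cells, whereas Vdr itself was lower. S100g, which carries calcium through the enterocyte, was at 20.3 and 34.4 CPM in stem-like and 516.6 and 755.7 in enterocyte-like cells (log2 fold change 4.76, SE 0.07, edgeR adjusted p = 2.7e-22). The manganese exporter Slc30a10 rose by 4.87 and the basolateral calcium pump Atp2b1 by 0.44. Of the FXR targets, 4 of 5 were higher and none lower, among them the bile acid exporter subunits Slc51a (5.86) and Slc51b (5.55), the uptake transporter Slc10a2 (4.83) and the bile acid binding protein Fabp6 (3.30). Fabp6 was uneven between the libraries, at 412.8 and 20.1 CPM in enterocyte-like against 25.6 and 14.7 in stem-like cells, and so was Slc10a2, at 15.1 and 0 against 0.196 and 0.303. Slc10a2 too did not pass the filter through stem-like cells and could only come out higher. Without the first WT library 2 of the 5 FXR targets were called. Of the PPAR alpha targets, 12 of 16 were higher and 2 lower, with rises of the fatty acid oxidation enzymes Acadm (1.38) and Hadha (0.84) and the carnitine carrier Slc25a20 (1.97). All 8 ESRRA targets were higher, with mitochondrial creatine kinase Ckmt1 at 3.04 and cytochrome c, Cycs, at 1.76. Of 7 glucocorticoid receptor targets, Tsc22d3 was higher (0.93) and 3 were lower (1 without the first WT library), Klf9 (-0.73), Fkbp5 (-2.33) and Dusp1 (-1.72). The medians were 0.99 for PPAR alpha, 0.96 for ESRRA and -0.73 for glucocorticoid receptor targets, beside -0.16 over all genes.

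Related factors were counted in the same comparison, against the 27.5% of all genes called higher and 32.3% lower. Of 22 other nuclear receptors tested, 7 were higher and 3 lower, the highest being the xenobiotic receptor Nr1i3 (3.99), then the oxysterol receptor Nr1h3 (1.87) and Ppard (1.58). Among 12 cofactors, 3 were higher and 2 lower. The coactivator Ppargc1a rose by 2.31, Ncor1 rose by 0.36, and the corepressor Hdac3 fell by 0.44. Of 17 other enterocyte transcription factors, 7 were higher and 4 lower, with Creb3l3 at 5.60, Maf at 5.31, Isx at 1.47 and the Notch target Hes1 at -1.41.

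The lineage-traced WT cells gave 3 of 3 VDR, 4 of 4 FXR, 9 of 14 PPAR alpha, 5 of 8 ESRRA and 1 of 7 glucocorticoid receptor targets higher in enterocyte-like cells, and 1 PPAR alpha target lower, against 22.4% of all genes called higher. Here too Slc30a10 and Slc10a2 did not pass the filter through stem-like cells. The same held for other genes in these counts and those below. Examples are Nr1i3, at 1.43 and 0 CPM in stem-like WT cells, Acaa1b (2.15 and 0) and Cd36 (3.58 and 2.52), which could only come out higher. Without the first WT library the PPAR alpha count was 4 of 13 and the ESRRA count 3 of 8. Sgk1, a kinase that acts on sodium channels, was the glucocorticoid receptor target that rose, by 3.10. Other nuclear receptors counted 8 higher of 18 (Nr1i3 4.79, Nr1d1 2.30), cofactors 2 of 12, and other enterocyte factors 7 higher and 1 lower of 17. Without the first WT library 2 of 16 receptors and 0 of 12 cofactors were called by edgeR.

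Between the genotypes of the Lgr5+ experiment, Acaa1b, a peroxisomal enzyme of fatty acid oxidation, was the only gene of the 8 lists that was called over all cells or within enterocyte-like cells. It was at 0.260 and 0.362 CPM in Lgr5+WT and 5.11 and 3.08 in Lgr5+Setdb1KO over all cells, a log2 fold change of 3.67 (SE 0.34, edgeR adjusted p = 0.0088). In enterocyte-like cells it was higher by 2.14 (SE 0.37, edgeR adjusted p = 0.023), a call lost with DESeq2, with either other choice of class markers and without either WT library. The step of S100g from stem-like to enterocyte-like cells was smaller in Lgr5+Setdb1KO, by -0.67 (SE 0.12, edgeR adjusted p = 0.0046), with 117.5 and 322.3 CPM in their enterocyte-like cells. The lineage-traced libraries had Acaa1b at 6.74 and 4.82 CPM in WT and 0.445 and 0.299 in Setdb1-KO (log2 fold change -4.56, SE 0.35), where it passed the filter only through WT and could only come out lower, and the effects in the 2 experiments differed by -8.23 (SE 0.50, edgeR adjusted p = 1.8e-06).

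In enterocyte-like cells of the lineage-traced libraries the VDR targets S100g and Atp2b1 were lower in Setdb1-KO. S100g was at 2704 and 1577 CPM in WT and 271.1 and 306.8 in Setdb1-KO (log2 fold change -2.90, SE 0.43, edgeR adjusted p = 8.7e-08). Atp2b1 was at 585.3 and 335.4 CPM against 64.8 and 29.2 (-3.54, SE 0.46, edgeR adjusted p = 2.7e-09). Slc30a10, at 109.1 and 63.4 CPM against 0 and 3.65, passed the filter only through WT and could only come out lower, and the other 2 of the 5 VDR targets listed did not pass. In stem-like cells S100g was at 166.9 and 171.0 CPM in WT against 27.1 and 25.5. Fabp6, also far higher in enterocyte-like cells of WT, was there at 511.6 and 417.5 CPM against 58.6 and 48.4. The part of free RNA in these stem-like levels was not tested.

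**Figure D5:**
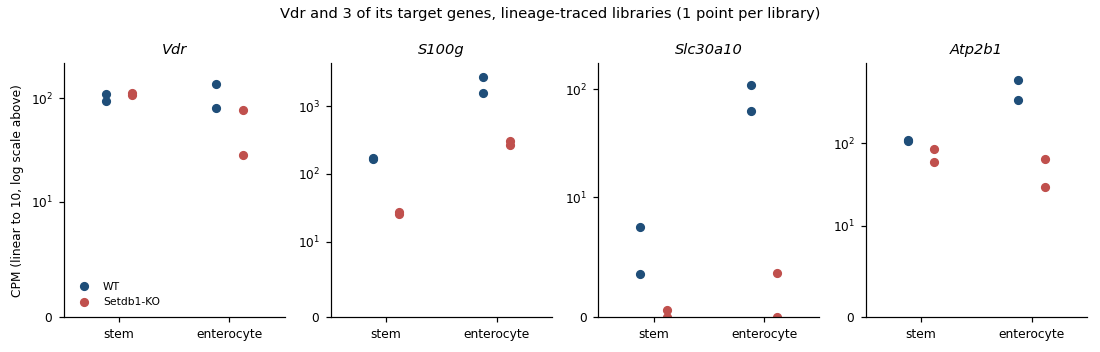
Vdr and the 3 VDR targets that passed the filter on low counts, in CPM (vertical axis, linear up to 10 and logarithmic above), in stem-like and enterocyte-like cells of the lineage-traced libraries, with 1 point per library, blue for WT and red for Setdb1-KO. In enterocyte-like cells both red points lie below both blue points in all 4 panels, and in stem-like cells the Vdr points of the 2 genotypes lie together at 93.9 to 111.3 CPM.

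Of 6 FXR targets listed, 4 passed the filter and were lower in the same cells, where 11.0% of all genes were called lower, with Fabp6 at 3539 and 3171 CPM against 41.3 and 99.8 (log2 fold change -5.42, SE 0.50, edgeR adjusted p = 5.7e-15), Slc10a2, which passed only through WT, lower by -4.98, Slc51b by -3.12 and Slc51a by -1.35, while Nr1h4 was not called. Of 13 PPAR alpha targets 4 were lower (among them Ehhadh by -1.70) and 1 was higher, the thioesterase Acot1 (2.00), of which Ehhadh passed the filter only through WT and Acot1 only through Setdb1-KO, with 1 lower under DESeq2 and 1 without the first WT library. Acaa1b, another of the PPAR alpha targets called lower, also passed only through WT. With brush border markers in place of the enterocyte markers 0 of the 4 FXR targets were called by edgeR. Of 5 glucocorticoid receptor targets Sgk1 was lower, from 82.4 and 47.0 CPM to 5.89 and 3.65, having passed only through WT, and 0 of 7 ESRRA targets were called by edgeR. The medians were -0.13 (PPAR alpha), -0.65 (glucocorticoid receptor) and 0.10 (ESRRA), beside -0.02 over all genes. Other nuclear receptors counted 2 lower of 16, next to that 11.0%, Nr1d1 (-1.57) and Pparg, the latter at 19.7 and 12.3 CPM in WT with 0 UMIs in both Setdb1-KO libraries, so that it passed the filter only through WT. Of 15 other enterocyte factors 4 were lower, among them Klf4 (-3.95), Maf (-2.23) and Creb3l3 (-1.07), and 0 of 8 cofactors were called. Klf4 was at 225.0 and 158.5 CPM in WT against 11.8 and 12.2 in Setdb1-KO. Whether the enterocyte-like class held cells of the same maturity in both genotypes was not tested.

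Over all lineage-traced cells the lists counted 3 lower of 3 VDR, 4 lower of 5 FXR, 6 lower and 1 higher of 17 PPAR alpha, 2 lower of 7 glucocorticoid receptor and none of 8 ESRRA targets in Setdb1-KO, and among related factors 3 lower of 23 nuclear receptors, none of 12 cofactors and 5 lower of 18 enterocyte factors, against 7.19% of all genes called lower. The lower share of enterocyte-like cells moved with these counts, and fewer cells of a class and less RNA per cell cannot be told apart over all cells.

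Over the 56 sums of 7 classes in 8 libraries, each of the 10 genes was set beside 8962 genes with a mean of at least 5 CPM by Pearson's r of log2(CPM + 1). Among the closest were Rad23b for Hnf4a (r = 0.94), Srek1ip1 for Hnf4g (0.90), Aqp11 for Ppara (0.83), Numb for Rxra (0.81), 4931406P16Rik for Nr5a2 (0.90), Pisd for Nr3c1 (0.85), Gimd1 for Nr1h4 (0.83), Net1 for Vdr (0.83) and Psmc4 for Cdx2 (0.94). Nrip1, a corepressor of nuclear receptors, was the next closest to Vdr (0.79). Among the 10 genes themselves the highest values were 0.71 for Nr3c1 with Cdx2 and 0.70 for Ppara with Rxra. Sums of a library share its depth and experiment, so these values describe the 56 sums and carry no test.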

How the data were processed

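Single-cell RNA-seq of 8 mouse libraries, 2 per group, was used, and 10 further samples of the series (total RNA, histone mark and chromatin accessibility) were not used here. The authors deposited raw gene-by-barcode matrices of UMI counts, not normalized. Their processing notes name Cell Ranger 6.1.1, Seurat 5.0.3 and the mm10 build. Counts were those of the deposited matrices, with no batch correction.

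Barcodes were filtered on UMIs and mitochondrial share as given above and assigned to the class whose 7 to 10 marker genes (summed CPM per barcode) passed a cut by most. The cut was the larger of a minimum per class and 1.5 times the highest free-RNA level in barcodes of 10 to 100 UMIs, with at least 2 marker UMIs. Doublets were not removed in the values reported, and leaving out barcodes that passed the cuts of 2 or more classes was an alternative. UMIs were summed per library and class and tested with edgeR 4.0.16 (R 4.3.3, limma 3.58.1): filterByExpr, TMM factors, quasi-likelihood F test, Benjamini-Hochberg over all genes tested, threshold 0.05. Steps between classes used library, class and class by genotype in a single fit over stem-like, progenitor-like and enterocyte-like sums. Alternatives were RLE factors, no factors, no filter, DESeq2 1.42.0, a replicate block, each library left out, a mitochondrial limit of 10%, a UMI minimum of 2000 or 1000, a stricter cut (2 times) and brush border markers. The scripts were tested on simulated data. Exact permutation tests were used for shares. A count of 0 was given the upper limit of 3 counts.

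TMM factors ran from 0.797 to 1.32 over whole lineage-traced libraries. Without factors the median log2 fold change over all genes from stem-like to enterocyte-like cells moved from -0.16 to -0.37 (Lgr5+ WT) and from -0.08 to -0.35 (lineage-traced WT). Plain CPM carries no such factor, so fold changes can differ from ratios of CPM.

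All 10 members were named, of each list up to 4 called genes with the smallest adjusted p, and of the most similar genes the top 3, and some genes that this rule names are not reported here. The members and lists were chosen with earlier results of these data known. WT and Setdb1-KO libraries of equal replicate number correlated at 0.012 (Lgr5+) and 0.31 (lineage-traced) in their deviations, and with 2 pairs they were not treated as paired.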

Additional observations from a re-analysis of the deposited data

Results flagged for a closer look

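In the lineage-traced libraries the step of Vdr from stem-like to enterocyte-like cells differed with genotype, by -1.722 on the log2 scale, by the class by genotype term of the edgeR fit. The effect of Setdb1 loss on Nr1h4 over all cells differed between the experiments, by -0.8341, by the interaction term. In WT cells the step to enterocyte-like cells differed between the experiments for Hnf4a (0.677), Hnf4g (-1.0493) and Vdr (0.8987), by the contrast of the class terms. Groups of 2 libraries were too small to be searched for single outlying samples.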

How the results depend on the processing

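The following counts are of members called. Setdb1-KO against WT in all Lgr5+ cells gave 1 member with DESeq2 and 1 with a mitochondrial limit of 10% (Vdr, both), and the other 3 Lgr5+ comparisons of genotype stayed at 0 under every setting run. Leaving out each library gave 3 to 6 members for progenitor-like and 5 to 9 for enterocyte-like against stem-like in Lgr5+ WT, both lowest without a WT library. In all lineage-traced cells the count was 1, a higher Hnf4g in place of Rxra, without factors, 2 with no filter, 0 with DESeq2, 2 with a mitochondrial limit of 10%, and 0 to 2 with a library left out. Within lineage-traced enterocyte-like cells it was 0 with DESeq2, 2 with the stricter cut (Vdr and Hnf4a), 0 with brush border markers and 0 to 1 with a library left out. The lineage-traced WT step to enterocyte-like was 4 without factors (Ppara, Nr1h4 and Esrra of the 7, and a lower Cdx2, -0.55), 1 with DESeq2, 3 with the stricter cut and 0 to 7 with a library left out. The class by genotype difference in the lineage-traced libraries was 2 with the stricter cut and 0 to 1 with a library left out (0 without the first WT and without the second Setdb1-KO library). The difference of the Setdb1 effect between the experiments was 0 with RLE factors, 3, all higher, without factors (Hnf4g, Nr3c1 and Vdr), 2 with no filter, 0 with DESeq2, 0 with the higher UMI minimum, 0 without barcodes of 2 or more classes, and 0 to 1 with a library left out. The added WT step between the experiments gave 1 to 3 with a library left out, and the 1, without the first lineage-traced WT library, was lower. Signs turned for Cdx2 in the Lgr5+ libraries without factors, to -0.0085 (enterocyte-like against stem-like, WT), -0.2064 (against progenitor-like, WT) and -0.0269 (against stem-like, Setdb1-KO), and for Rxra (-0.0876) and Vdr (-0.018) in the lineage-traced WT step without the first WT library, where leaving out the second gave the highest values (1.6933 and 0.8552). The cause of these differences was not tested, except that fits with a library left out hold fewer samples and assume that a lone library varies like the others.

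With the replicate block, all lineage-traced cells gave 2 members (Rxra and Nr1h4) in place of 1, and no other member count changed. Over all genes the replicate block moved the calls in all Lgr5+ cells from 182 to 51, in Lgr5+ stem-like cells from 46 to 393, in Lgr5+ enterocyte-like cells from 64 to 383, in all lineage-traced cells from 1066 to 2579 and between the experiments from 1045 to 1728. The replicates share only a number, and library is already a term where classes are compared, so no such alternative was run there.

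Depth limits the lineage-traced Setdb1-KO enterocyte-like cells, where Vdr rests on 13 and 23 and Nr1h4 on 3 and 4 UMIs.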
